A study of Mus musculus with 12 samples.

Results

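The genes described are 10 costimulatory and checkpoint receptors of the immunoglobulin superfamily: Cd28, Icos, Ctla4, Pdcd1, Btla, Lag3, Tigit, Cd96, Havcr2 and Cd200. They were chosen by name, as the rows with these gene names among the 32285 genes of the deposited table, and each name matched 1 row. RNA had been sequenced in 12 libraries, all from C57BL/6 mouse cells sorted as naive CD4+ T cells out of spleen and lymph nodes. In the Mettl3 set, 3 wild type libraries came from untreated cells (0 h) and 3 wild type libraries from cells given anti-CD3/CD28 antibodies for 48 h. The same set has 2 untreated Mettl3-/- libraries, numbered 1 and 3. In the Nudt21 set, 2 wild type and 2 Nudt21-/- libraries came from untreated cells. No knockout library at 48 h was analysed here, and the age of the animals and the promoter or Cre line behind each deletion are not given in the sources used here. Nothing in the labels ties the libraries of a group to separate animals, so the p-values measure only the spread between these libraries, which may be technical.

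CD28 gives a T cell the costimulatory signal that goes with antigen recognition, by binding CD80 and CD86. CTLA-4 binds the same ligands more tightly and restrains the response, and ICOS, a relative of CD28, binds ICOS ligand and is known for its part in T cell help to B cells. PD-1 (Pdcd1) and BTLA carry cytoplasmic motifs that recruit tyrosine phosphatases such as SHP-1, encoded by Ptpn6. LAG-3 binds MHC class II, and TIGIT and CD96 compete with the activating receptor CD226 for nectin-like ligands such as the product of Pvr. TIM-3 (Havcr2) marks strongly or chronically stimulated cells, and CD200 is a ligand that restrains cells bearing the CD200 receptor. Mettl3 encodes the catalytic subunit of the enzyme that writes m6A on mRNA. Nudt21 encodes the subunit of the cleavage factor CFIm that binds UGUA ahead of polyadenylation sites.

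Several of these genes are neighbours in the mouse genome (GENCODE M21, build mm10, gene spans from first to last exon). Cd28 (chr1:60716800-60773359), Ctla4 (chr1:60887000-60915832) and Icos (chr1:60977927-61000320) lie in that order on the plus strand of chromosome 1. Gaps of 113.6 kb and 62.1 kb separate them, with 0 protein-coding genes in either gap. Pdcd1 (chr1:94038305-94052553, minus strand) is on the same chromosome, with 292 protein-coding genes between it and Icos. Chromosome 16 holds Tigit (chr16:43648867-43664146, minus), Btla (chr16:45224315-45257670, plus), Cd200 (chr16:45382135-45409053, minus) and Cd96 (chr16:46035657-46120251, minus). Btla and Cd200 are 124.5 kb apart with 0 protein-coding genes between them, and 10 lie between Cd200 and Cd96. Havcr2 is at chr11:46454935-46481255 (plus) and Lag3 at chr6:124904361-124911705 (minus).

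Each deletion was visible in its own target. Mettl3 stood at 26.7, 28.7 and 25.3 FPKM in the resting wild types and at 5.36 and 6.45 FPKM in the Mettl3 knockouts, and Nudt21 at 18.2 and 16.9 FPKM in its wild types and 7.57 and 6.69 FPKM in its knockouts. FPKM (fragments per length of transcript and per unit of library depth) is already scaled, so the depth behind each library cannot be read from these values. The 9 CD4 T cell markers were all above 1 FPKM in all 12 libraries, and the sum of 7 naive T cell markers was 1732 to 2061 FPKM in resting libraries and 709.6 to 781.9 FPKM at 48 h. Mettl3 knockout 3 stood apart. Its log2 values correlated with those of knockout 1 at r = 0.9252 over the 12511 genes tested, against 0.9906 to 0.9974 between libraries of every other group. Of the genes tested, 1069 (8.54%) reached 1 FPKM in knockout 3 at 2 or more times their level in knockout 1, and 88 (0.703%) the reverse. It exceeded all resting wild types of its set in 14 of 14 myeloid and dendritic, 10 of 10 B cell and 10 of 10 CD8 T and NK cell markers. Tests of the Mettl3 knockout are therefore given with and without this library. In the Nudt21 set such sums were higher as well: the 14 myeloid markers summed to 41.1 to 300.9 FPKM there, against 10.7 to 12.7 FPKM in resting wild types of the Mettl3 set.

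**Figure D1:**
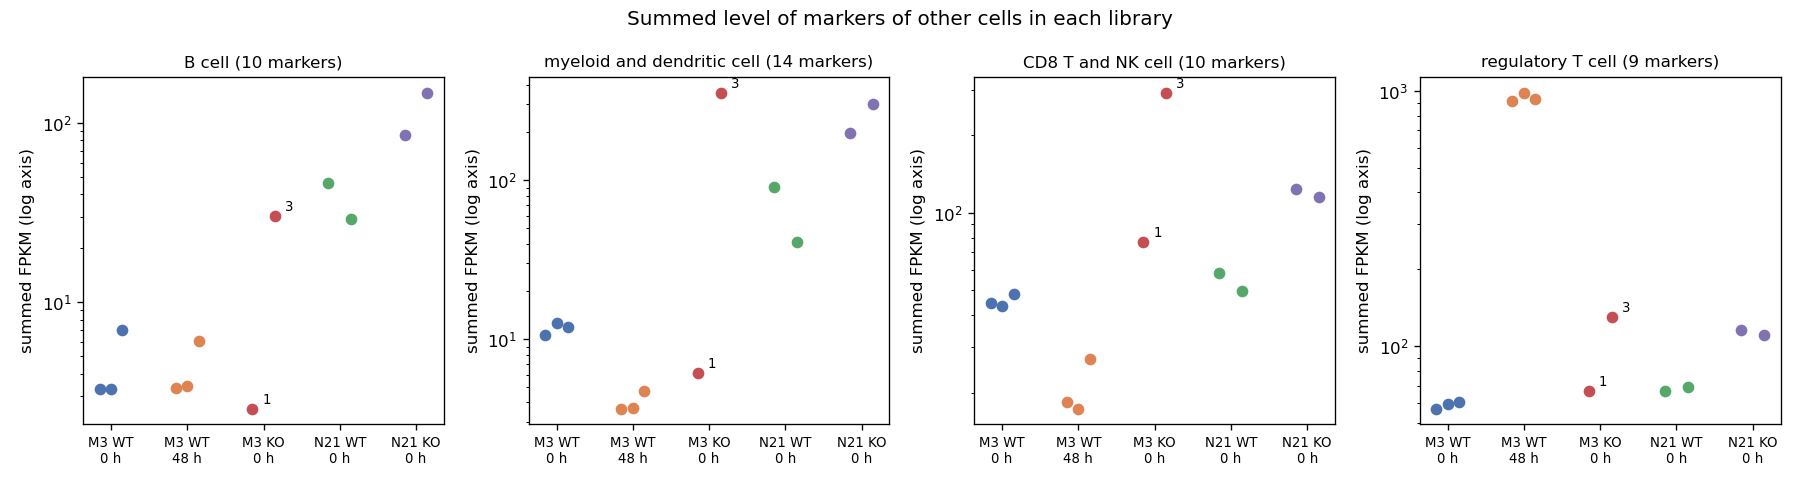
Summed FPKM of B cell, myeloid and dendritic, CD8 T and NK, and regulatory T cell markers in each of the 12 libraries (y axis, logarithmic). The x axis shows the 5 groups, and each point is 1 library. M3 is the Mettl3 set, N21 the Nudt21 set, and 1 and 3 number the Mettl3 knockouts. The regulatory T cell list, at 911.9 to 982.2 FPKM at 48 h, holds genes such as Il2ra and Tnfrsf4 that activated T cells also express. Mettl3 knockout 3 reaches 354.1 FPKM in the myeloid list where knockout 1 has 6.13, and the Nudt21 knockouts lie above their wild types in all 4 lists.

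In resting wild type cells of the Mettl3 set the receptors covered a wide range of levels. Cd96, Cd28 and Btla had the highest means, 55.7 ± 5.71, 54.1 ± 1.76 and 41.1 ± 3.47 FPKM (SD, n = 3), above 90%, 89.6% and 85.4% of the genes tested. Icos at 14.8 ± 1.95, Ctla4 at 8.67 ± 1.64 and Cd200 at 5.41 ± 0.837 FPKM were intermediate. Pdcd1 (1.77 ± 0.0453), Lag3 (1.38 ± 0.850) and Tigit (0.666 ± 0.10) were low, and Havcr2 (0.0201 ± 0.0119 FPKM) was close to 0. The resting Nudt21 wild types had the same 4 genes on top in the same order, with Cd28 and Btla closer together at 43.3 and 40.5 FPKM. At 48 h the order was different: Ctla4 led at 150.2 ± 6.37 FPKM, above 97.1% of genes, Cd200, Cd28, Lag3, Icos and Btla lay between 83.6 and 66.2 FPKM, and Cd96 was next to last at 9.03 ± 0.487 FPKM.

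Set side by side, the 48 h wild types were separate from the next group in each of the 9 genes tested, as the highest group for 8 genes and the lowest for Cd96. Among the resting groups, Btla overlapped between Mettl3 knockout, Mettl3 wild type and Nudt21 wild type, and the Nudt21 knockouts were separate below them. Icos was highest in the Mettl3 knockouts, overlapped between the wild types of the sets, and was lowest in the Nudt21 knockouts. For Ctla4 the Mettl3 knockouts and wild types overlapped, and the Nudt21 wild types and then the Nudt21 knockouts followed, each separate. Cd96 had the same order as Ctla4 among the resting groups, with the same neighbours overlapping. For Pdcd1 the Nudt21 knockouts were separate above the Nudt21 wild types, which overlapped the Mettl3 knockouts. Cd28 was separate in the Mettl3 wild types above the other resting groups, which overlapped their neighbours, and Cd200 overlapped between all neighbouring resting groups. Lag3 was separate in the Mettl3 knockouts above the Nudt21 knockouts, but Mettl3 knockout 1 (2.11 FPKM) lay inside the Mettl3 wild type range (0.828 to 2.36 FPKM). The Nudt21 knockouts, Mettl3 wild types and Nudt21 wild types overlapped their neighbours in Lag3. In Tigit the Mettl3 knockouts spanned the Nudt21 knockouts, which were separate above the Nudt21 wild types and these above the Mettl3 wild types.

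**Figure D2:**
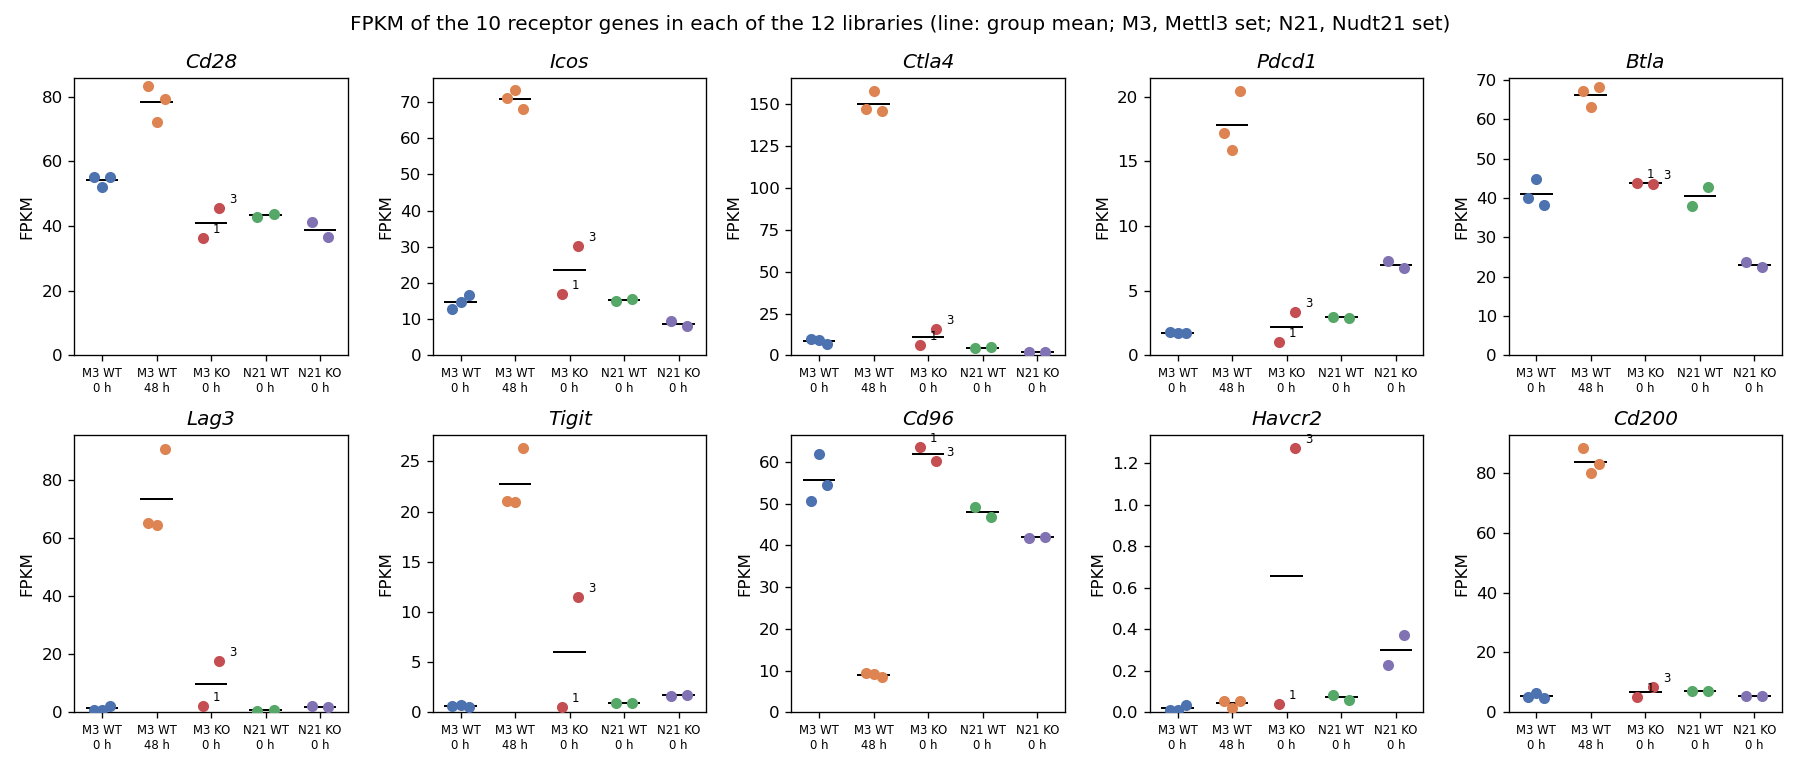
FPKM (y axis, linear from 0, scaled per panel) of each receptor gene in the 12 libraries, by group (x axis; M3, Mettl3 set; N21, Nudt21 set); each point is 1 library, the line is the group mean, and 1 and 3 number the Mettl3 knockouts. The 48 h libraries are the highest for 8 genes and the lowest for Cd96, and Mettl3 knockout 3 stands above knockout 1 for Lag3 (17.6 against 2.11 FPKM), Tigit (11.5 against 0.555) and Havcr2 (1.27 against 0.0410).

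The comparison of wild type cells at 48 h and 0 h asks how these receptors change on stimulation through CD3 and CD28. Of the 9 receptor genes that could be tested, 8 rose and Cd96 fell (limma on log2(FPKM + 1), Benjamini-Hochberg adjusted p under 0.05 over 12511 genes). Activation changed most of the transcriptome: 78.5% of the genes tested passed, 43.6% higher and 34.9% lower. In 82.9% of genes the 48 h and 0 h libraries did not overlap, as in all 9 receptor genes. The median log2 change of the 9 was 2.76, beside 0.07 over all genes tested. The 9 do not cover the whole group: Havcr2 was not tested, because only 1 of 12 libraries reached 1 FPKM, and Lag3 and Tigit would not have passed the filter on low values from resting wild types alone.

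Among the CD28 family, Cd28 itself stood at 55.1, 52.1 and 55.2 FPKM at 0 h and at 83.3, 72.01 and 79.3 FPKM at 48 h. All 3 stimulated libraries were above all 3 resting ones, although by a small margin for a receptor that was already abundant. The ratio of means was 1.44 and the log2 change 0.52 ± 0.09 (SE, adjusted p = 0.000276). Icos rose from 12.8, 14.9 and 16.7 FPKM to 71.0, 73.3 and 68.0 FPKM, which brought it near the level of Cd28. The groups were far apart, with a ratio of 4.80 and a log2 change of 2.19 ± 0.17 (adjusted p = 1.02e-06). For Ctla4 the resting values were 9.97, 9.21 and 6.83 FPKM and the stimulated values 146.9, 157.5 and 146.1 FPKM. Ctla4 thus passed from below Cd28 to above it in every library, with a ratio of 17.3 and a log2 change of 3.98 ± 0.25 (adjusted p = 2.39e-07). Foxp3, which defines regulatory T cells, a known source of Ctla4 mRNA, was at 4.72, 3.81 and 5.93 FPKM at 0 h and 3.58, 4.24 and 2.25 FPKM at 48 h and did not pass (adjusted p = 0.255). Of the 9 regulatory T cell markers 6 rose, and the part of such cells in the Ctla4 value was not tested.

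Pdcd1 had 1.82, 1.73 and 1.76 FPKM at rest and 17.2, 15.9 and 20.5 FPKM after 48 h. The resting libraries were nearly level and every stimulated library was far above them (ratio 10.1, log2 change 2.76 ± 0.22, adjusted p = 1.16e-06). Btla, like Cd28, started high and gained little: 40.1, 44.95 and 38.2 FPKM became 67.2, 63.1 and 68.2 FPKM. Its groups did not overlap, and the log2 change was 0.68 ± 0.07 (ratio 1.61, adjusted p = 6.34e-06). Lag3 was at 0.959, 0.828 and 2.36 FPKM at 0 h and at 65.1, 64.3 and 90.8 FPKM at 48 h. Library 3 was the highest at both times, and the log2 change of 5.0 ± 0.53 (adjusted p = 9.46e-06) was the largest of the 9, with a ratio of means of 53.1.

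The nectin-binding pair moved in opposite directions. Tigit was at 0.647, 0.774 and 0.576 FPKM at rest and reached 21.02, 20.98 and 26.3 FPKM (ratio 34.2, log2 change 3.83 ± 0.57, adjusted p = 0.000122). Cd96 was at 50.7, 61.9 and 54.4 FPKM at rest and fell to 9.46, 9.12 and 8.50 FPKM, a ratio of 0.162 and a log2 change of -2.49 ± 0.07 (adjusted p = 2.88e-09). In each stimulated library Tigit was thus above Cd96, and in each resting library far below it. Cd200, the ligand of the group, went from 5.10, 6.36 and 4.78 FPKM to 88.3, 79.8 and 82.7 FPKM. No resting library came near a stimulated one (ratio 15.4, log2 change 3.73 ± 0.15, adjusted p = 1.4e-08). Havcr2 stayed near 0 FPKM in all 6 libraries, at 0.0132, 0.0133 and 0.0338 at 0 h and 0.0573, 0.0218 and 0.0527 at 48 h, with overlapping groups. These 9 calls held in each of the 22 alternative analyses. B cell and myeloid markers were low at both times: B cell markers summed to 3.27 to 6.97 FPKM at 0 h and 3.32 to 6.09 at 48 h, and myeloid markers to 10.7 to 12.7 and 3.66 to 4.75 FPKM. CD8 T and NK markers summed to more, 43.2 to 48.5 FPKM at 0 h and 17.4 to 27.1 FPKM at 48 h. The part of such cells in the receptor values was not tested.

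Promoters are shown for the 4 receptor genes found to hold the motif marked below, 3 that rose at 48 h (Ctla4, Pdcd1, Tigit) and Cd96, which fell. The sequences run from 250 bases before to 50 bases after the RefSeq transcription start (GRCm38.p6, on the gene's own strand), and 7 of the 10 genes were in that table. Capitals mark GGAAA, the core of binding sites for NFAT, the calcium-dependent factor of T cell activation, which on the printed strand may read TTTCC.
Ctla4, chr1:60908775-60909074, plus strand: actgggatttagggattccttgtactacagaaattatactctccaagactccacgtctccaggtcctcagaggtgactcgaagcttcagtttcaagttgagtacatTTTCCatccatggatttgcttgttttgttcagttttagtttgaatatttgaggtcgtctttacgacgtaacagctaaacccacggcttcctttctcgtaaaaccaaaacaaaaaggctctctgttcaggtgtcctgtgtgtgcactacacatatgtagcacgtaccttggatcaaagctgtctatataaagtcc
Pdcd1, chr1:94052504-94052803, minus strand: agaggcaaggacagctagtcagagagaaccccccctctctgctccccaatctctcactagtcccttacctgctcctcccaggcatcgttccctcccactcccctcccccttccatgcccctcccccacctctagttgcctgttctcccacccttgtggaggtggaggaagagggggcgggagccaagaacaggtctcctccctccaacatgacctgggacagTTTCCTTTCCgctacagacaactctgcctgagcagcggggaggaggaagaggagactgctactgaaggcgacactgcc
Tigit, chr16:43664135-43664434, minus strand: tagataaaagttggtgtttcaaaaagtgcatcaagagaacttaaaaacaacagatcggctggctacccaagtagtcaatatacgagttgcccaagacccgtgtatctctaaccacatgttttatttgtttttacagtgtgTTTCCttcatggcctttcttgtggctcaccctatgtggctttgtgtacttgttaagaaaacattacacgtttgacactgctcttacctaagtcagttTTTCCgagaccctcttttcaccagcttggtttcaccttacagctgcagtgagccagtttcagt
Cd96, chr16:46120199-46120498, minus strand: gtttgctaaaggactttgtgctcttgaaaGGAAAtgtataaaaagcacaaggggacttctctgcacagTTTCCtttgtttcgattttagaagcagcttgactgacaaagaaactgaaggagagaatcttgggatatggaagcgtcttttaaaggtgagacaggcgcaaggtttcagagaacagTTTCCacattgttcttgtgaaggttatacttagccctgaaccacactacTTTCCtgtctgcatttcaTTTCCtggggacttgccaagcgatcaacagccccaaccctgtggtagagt
Ctla4 has 1 match, whose first base is at -144 from the start. Pdcd1 has 2 adjoining matches at -28 and -23, and Tigit has 2, at -110 and -13. Cd96, the gene that fell, has the most, 5. Btla, Cd200 and Havcr2, not shown, have 0, although the log2 change of Cd200 at 48 h (3.73) exceeded that of Pdcd1 (2.76). The motif is common: 4 of the 7 genes hold it, beside 61.3% of the 32851 promoters in the table on either strand. TGANTCA, bound by AP-1, was found in 1 of the 7 (Havcr2) and in 7.81% of all promoters on either strand. The motifs did not overlap in the 7 promoters. The Ctla4 window lies inside the GENCODE span, because another annotated Ctla4 transcript begins farther upstream. A match is a string of letters, and no binding was measured.

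The genes around the receptors were less uniform at 48 h. Of 13 ligands and binding partners tested, 6 rose and 5 fell (median log2 change 0.28). Tnfsf14, a ligand of HVEM, which is also the partner of BTLA, rose from 0.426 ± 0.195 to 11.8 ± 0.255 FPKM, and Pdcd1lg2, the PD-1 ligand PD-L2, from 0.287 ± 0.0215 to 9.005 ± 0.420 FPKM (SD, n = 3). Cd200r1, the CD200 receptor, fell from 10.2 ± 0.917 to 0.553 ± 0.177 FPKM while Cd200 rose, and Icosl fell from 3.47 ± 1.55 to 0.573 ± 0.0484 FPKM. Of 17 other immunoglobulin-family receptors, 4 rose and 8 fell (median -0.01). Slamf7 rose to 20.5 ± 6.61 FPKM from 0.450 ± 0.107, and Cd7 fell from 36.1 ± 5.69 to 3.68 ± 1.32 FPKM.

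Signalling proteins below the receptors mostly fell: 16 of 22 were lower and 4 higher (median -0.41). Prkcq, the kinase PKC-theta recruited by CD28, fell from 118.1 ± 4.37 to 28.1 ± 1.14 FPKM, and Trat1, an adaptor that helps CTLA-4 to the cell surface, from 27.4 ± 1.17 to 4.73 ± 0.95 FPKM. Cblb, a ubiquitin ligase that sets the need for CD28, rose from 26.1 ± 1.89 to 55.1 ± 6.69 FPKM. In the list of trafficking, shedding and mRNA control, 9 of 13 fell and 2 rose (median -0.28). It was led by Zfp36, which binds AU-rich elements, down from 150.2 ± 12.9 to 22.7 ± 2.10 FPKM. Of 23 transcription factors linked to the receptors, 6 rose and 12 fell (median -0.32). Irf4 rose from 3.54 ± 0.211 to 82.8 ± 8.90 FPKM and Nr4a3 from 5.81 ± 0.989 to 71.5 ± 8.35 FPKM, while Fos fell from 139.0 ± 16.5 to 3.32 ± 0.177 FPKM and Tcf7, a factor of naive cells, from 630.1 ± 73.9 to 139.4 ± 10.7 FPKM. Among the marker lists, 6 of 9 regulatory T cell genes rose, led by Il2ra and Tnfrsf4, which activated T cells also express. Of the naive list 6 of 7 fell, and of the CD4 T cell list 8 of 9 fell.

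**Figure D3:**
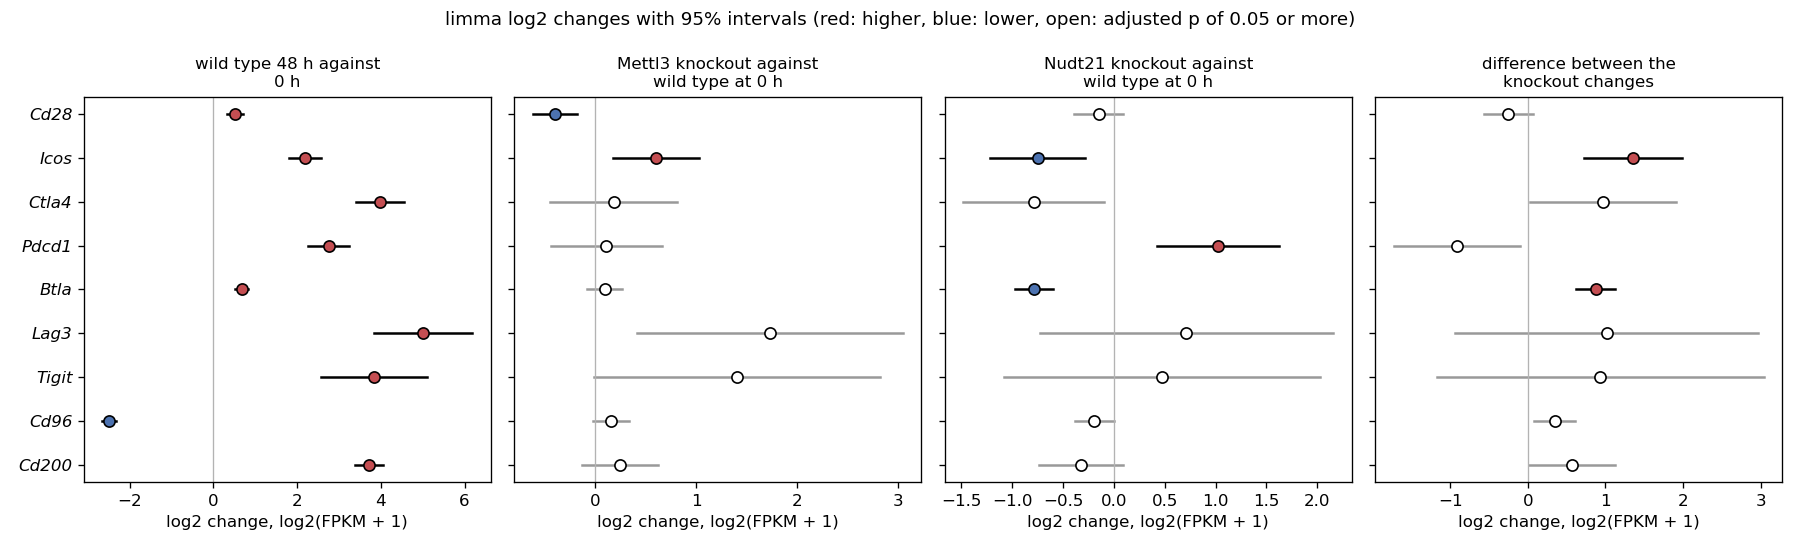
Log2 change of 9 receptor genes (y axis) in 4 comparisons, as fitted by limma on log2(FPKM + 1) (x axis, scaled per panel), with 95% intervals as bars; red points are higher and blue points lower at an adjusted p under 0.05, open points are not. At 48 h all 9 are filled, with Lag3 at 5.0 and Cd96 at -2.49, and between the knockouts Icos at 1.36 and Btla at 0.88 are filled.

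The Mettl3 knockout comparison asks what loss of the m6A writer does to these mRNAs in resting cells. Of the 9 genes tested, Cd28 was lower and Icos higher, and 7 did not pass, while 28.9% of the genes tested passed (16.8% higher, 12% lower). The groups did not overlap in 2 of these 9, beside 48.6% of genes tested, and the median log2 change was 0.18, beside 0.04 over all genes tested. Without knockout 3, the log2 changes were negative for Cd28 (-0.56), Ctla4 (-0.43), Pdcd1 (-0.43), Tigit (-0.10) and Cd200 (-0.09). They were positive for Icos (0.21), Btla (0.095), Lag3 (0.44) and Cd96 (0.19), and the median of the 9 was -0.09. With knockout 3 as the lone knockout, only Cd28 had a negative log2 change (-0.24). Icos then changed by 1.001, Ctla4 by 0.79, Pdcd1 by 0.65, Lag3 by 3.02, Tigit by 2.91 and Cd200 by 0.58. Btla changed by 0.09 and Cd96 by 0.11. Tests with a lone knockout library assume that it varies like the other groups, and their calls are not counted here.

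Cd28 was at 55.1, 52.1 and 55.2 FPKM in wild type and at 36.3 FPKM in knockout 1 and 45.7 FPKM in knockout 3. Both knockouts lay below all 3 wild types, with knockout 1 lower. The log2 change was -0.40 ± 0.10 (SE, adjusted p = 0.0131). It was -0.56 without knockout 3 (adjusted p = 0.00243) and -0.24 without knockout 1, where the call was lost (adjusted p = 0.0623). Icos was at 12.8, 14.9 and 16.7 FPKM in wild type and at 17.1 and 30.4 FPKM in knockouts 1 and 3. Knockout 1 was only just above the highest wild type. The log2 change of 0.60 ± 0.19 passed narrowly (adjusted p = 0.0408) and was 0.21 without knockout 3 (adjusted p = 0.276); the call was lost in 13 of the 22 alternatives.

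For Lag3, Tigit, Ctla4, Pdcd1 and Havcr2 the knockout libraries disagreed with each other. Lag3 was at 0.959, 0.828 and 2.36 FPKM in wild type, at 2.11 FPKM in knockout 1, inside that range, and at 17.6 FPKM in knockout 3. Its log2 change was 1.73 ± 0.59 (adjusted p = 0.052) with both and 0.44 without knockout 3 (adjusted p = 0.343). It was called higher in 6 of 22 alternatives: pseudocount 0.1, the filter at 5 FPKM, quantile scaling, the replicate block, without wild type 3 and without knockout 1. Tigit was at 0.647, 0.774 and 0.576 FPKM in wild type, 0.555 in knockout 1 and 11.5 FPKM in knockout 3, 20.7 times as high. With both libraries the log2 change was 1.41 ± 0.63 (adjusted p = 0.12), and without knockout 3 it was -0.10 (adjusted p = 0.658). Ctla4, at 9.97, 9.21 and 6.83 FPKM in wild type, was at 6.12 FPKM in knockout 1, below the wild types, and at 15.6 FPKM in knockout 3, above them. The same split held for Pdcd1, with 1.82, 1.73 and 1.76 FPKM in wild type against 1.06 in knockout 1 and 3.35 FPKM in knockout 3. Neither passed with both libraries (Ctla4 log2 change 0.18 ± 0.28, adjusted p = 0.65; Pdcd1 0.11 ± 0.24, adjusted p = 0.758). Without knockout 3, Pdcd1 was called lower at -0.43 (adjusted p = 0.0352), and Ctla4, also at -0.43, did not pass (adjusted p = 0.0874). Havcr2 was at 0.0410 FPKM in knockout 1 and 1.27 FPKM in knockout 3, with wild types at 0.0132, 0.0133 and 0.0338 FPKM.

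Markers of other cells moved with these values in knockout 3. Between knockouts 1 and 3 the summed level went from 2.55 to 30.2 FPKM for B cell markers, 6.13 to 354.1 FPKM for myeloid and dendritic markers, 77.0 to 290.8 FPKM for CD8 T and NK markers and 38.7 to 134.1 FPKM for effector, memory and follicular helper markers. Regulatory T cell markers went from 66.4 to 130.0 FPKM, with Foxp3 at 4.35 and 14.2 FPKM. The wild type ranges were 3.27 to 6.97 FPKM for B cell, 10.7 to 12.7 for myeloid, 43.2 to 48.5 for CD8 T and NK, 36.4 to 44.98 for effector and 56.8 to 60.2 FPKM for regulatory T cell markers. Their part in the receptor values was not tested. In these bulk samples, fewer cells of a type and less RNA per cell cannot be told apart. In knockout 1, B cell and myeloid sums were below those of the wild types.

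Btla, Cd96 and Cd200 did not pass in this knockout. Btla was at 40.1, 44.95 and 38.2 FPKM in wild type, against 43.9 and 43.7 FPKM in knockouts 1 and 3, within the wild type range (log2 change 0.09, interval -0.08 to 0.26, adjusted p = 0.373). Cd96 was at 50.7, 61.9 and 54.4 FPKM in wild type, against 63.6 and 60.1 FPKM in knockout (0.15, interval -0.02 to 0.33, adjusted p = 0.163). Cd200 was at 5.10, 6.36 and 4.78 FPKM in wild type, against 5.01 and 8.53 FPKM in knockout, with only knockout 3 above the wild types (0.25, interval -0.13 to 0.62, adjusted p = 0.281). Without knockout 3 they did not pass either, at 0.095 for Btla, 0.19 for Cd96 and -0.09 for Cd200 (adjusted p = 0.542, 0.205 and 0.671). The intervals are 95% intervals, and missing the threshold does not show that the levels were equal.

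**Figure D4:**
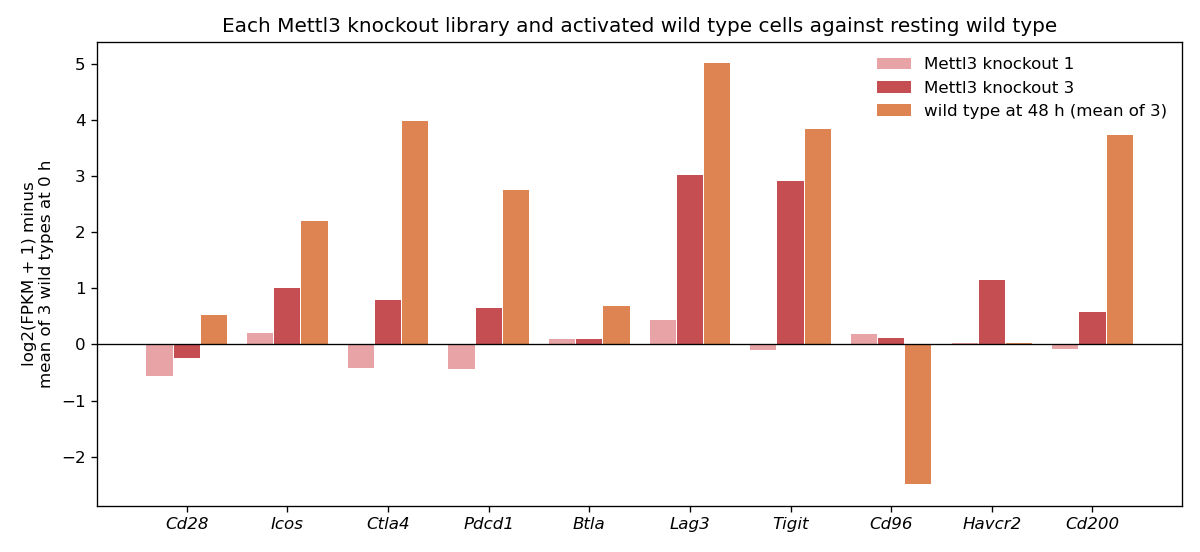
Difference in log2(FPKM + 1) from the mean of the 3 resting wild types (y axis) for each receptor gene (x axis), in Mettl3 knockout 1, Mettl3 knockout 3 and, as a mean of 3 libraries, wild type at 48 h. Lag3 and Tigit stand at 3.02 and 2.91 in knockout 3 and at 0.44 and -0.10 in knockout 1, and Cd96, which fell by 2.49 at 48 h, is at 0.19 and 0.11 in the knockouts.

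Around the receptors, several changes in the Mettl3 knockout were seen in both libraries and kept their call in every alternative run. Cd274, the PD-1 ligand PD-L1, was at 9.95, 12.4 and 14.3 FPKM in wild type, against 36.8 and 26.7 FPKM in knockouts 1 and 3 (log2 change 1.31 ± 0.17, adjusted p = 0.000806). Icosl was at 2.47, 2.70 and 5.26 FPKM in wild type, against 12.2 and 18.0 FPKM in knockout (1.88 ± 0.24, adjusted p = 0.000707). Without knockout 3 the log2 changes were 1.53 for Cd274 (adjusted p = 0.000511) and 1.61 for Icosl (adjusted p = 0.00292). In knockout 1 the B cell and myeloid sums were below and the CD8 T and NK sum, 77.0 FPKM, above the wild types. Of the 10 CD8 T and NK markers, 6 lay above and 3 below the wild type range in knockout 1. The part of such cells in the Cd274 and Icosl values was not tested. Of 13 ligands and partners 3 were higher and 2 lower (2 and 3 without knockout 3). Among 17 other receptors 4 were higher and 2 lower (3 and 3 of 16 without it), among them Cd226, the activating competitor of TIGIT and CD96, down from 16.1 ± 0.399 (n = 3) to 8.96 ± 0.578 FPKM (n = 2). Its log2 change without knockout 3 was -0.84 (adjusted p = 0.000454).

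Of 22 signalling proteins 3 were higher and 7 lower (2 and 6 without knockout 3). Ptpn6 fell from 126.8 ± 11.8 to 84.3 ± 9.31 FPKM (log2 change -0.69 without knockout 3, adjusted p = 0.00236). In the trafficking and mRNA control list 1 was higher and 5 lower of 13 (2 and 3 without it). Of 23 transcription factors 4 were higher and 7 lower, the same counts without knockout 3. Irf4 rose from 3.54 ± 0.211 to 10.6 ± 1.47 FPKM and Prdm1 from 1.38 ± 0.313 to 4.51 ± 1.09 FPKM, while Id3 fell from 26.8 ± 1.87 to 13.1 ± 2.64 FPKM and Nr4a1 from 157.2 ± 33.2 to 84.1 ± 4.51 FPKM. Without knockout 3 the log2 changes of these 4 were 1.22, 1.0, -1.18 and -0.82 in the order given, and each passed (adjusted p = 0.000254 to 0.0125). Median log2 changes of these 5 lists were 0.40, 0.16, -0.12, -0.12 and -0.19 in the order given. Among the marker lists, 6 of 9 CD4 T cell genes were lower (5 without knockout 3). Calls higher were 5 of 10 in the CD8 T and NK list (4 without it), 4 of 9 in the regulatory T cell list (2) and 3 of 9 in the effector list (3). Limma called 0 of 9 B cell and 0 of 10 myeloid genes (0 and 1 at an unadjusted p under 0.05), although knockout 3 was above the wild types in all of them.

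The Nudt21 knockout comparison asks the same of the polyadenylation factor, with 2 libraries on each side. Icos and Btla were lower and Pdcd1 higher, and 6 of the 9 genes tested did not pass. Of all genes tested 27.8% passed, 8.73% higher and 19% lower. The median log2 change of the 9 was -0.19, beside -0.05 over all genes tested. Knockout and wild type libraries overlapped in 0 of the 9, and in 75.3% of all genes tested they did not overlap either, so separation alone says little with 2 libraries a group.

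Btla was at 38.1 and 42.9 FPKM in the Nudt21 wild types and at 23.7 and 22.4 FPKM in the knockouts. Both knockouts were well below every other library of the 12, and the log2 change was -0.79 ± 0.08 (SE, ratio 0.569, adjusted p = 0.000349). This call held in all 23 alternatives. B cells also express Btla. Their markers summed to 46.2 and 29.2 FPKM in wild type and to 86.0 and 146.6 FPKM in knockout, and their part in the Btla value was not tested. Icos was at 15.1 and 15.7 FPKM in wild type, against 9.44 and 8.10 FPKM in knockout, lower in both (log2 change -0.75 ± 0.21, ratio 0.569, adjusted p = 0.0262). Pdcd1 was at 2.97 and 2.91 FPKM in wild type, against 7.32 and 6.73 FPKM in knockout, a ratio of 2.39 (log2 change 1.02 ± 0.27, adjusted p = 0.0205). Both Pdcd1 knockout values were above all other resting libraries and below all 48 h libraries. The calls of Icos and Pdcd1 were lost when any of the 4 Nudt21 libraries was left out, with adjusted p up to 0.153 and 0.0963 over their alternatives, at a log2 change that stayed within -0.85 to -0.63 for Icos and 0.945 to 1.23 for Pdcd1. They were lost with no filter on low values as well.

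Ctla4 was at 4.13 and 4.74 FPKM in wild type, against 2.31 and 1.99 FPKM in knockout, a ratio of 0.484 with both knockouts below both wild types. It did not pass (log2 change -0.79 ± 0.31, adjusted p = 0.0863). The spread shared by all groups includes that between the Mettl3 knockouts, and Ctla4 did pass when either Mettl3 knockout library was left out (adjusted p = 0.00208 and 0.00203). The 3 neighbours on chromosome 1, Cd28, Ctla4 and Icos, had log2 changes of -0.15, -0.79 and -0.75. Cd28 was at 42.9 and 43.6 FPKM in wild type, against 41.2 and 36.6 FPKM in knockout (interval -0.39 to 0.08, adjusted p = 0.311). Lag3 was at 0.643 and 0.896 FPKM in wild type, against 2.04 and 1.75 FPKM in knockout, and Tigit at 0.962 and 0.919 against 1.68 and 1.70 FPKM. Both were higher in both knockouts, but the log2 changes of 0.71 ± 0.64 and 0.47 ± 0.69 did not pass (adjusted p = 0.438 and 0.649). Without Mettl3 knockout 3, Tigit passed at the same change (adjusted p = 0.0103) and Lag3 did not (adjusted p = 0.058). Havcr2 was at 0.0838 and 0.0601 FPKM in wild type, against 0.230 and 0.374 FPKM in knockout.

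Cd96 was at 49.2 and 46.9 FPKM in wild type, against 41.9 and 42.0 FPKM in knockout, and Cd200 at 6.98 and 7.20 against 5.39 and 5.52 FPKM. Both were slightly lower in the knockouts and did not pass (log2 changes -0.19 ± 0.09 and -0.33 ± 0.18, adjusted p = 0.127 and 0.211). Cd200 did pass when either Mettl3 knockout library was left out (adjusted p = 0.0344 without knockout 3). Summed markers of other cells were higher in both Nudt21 knockouts than in both wild types. Besides the B cell list, myeloid and dendritic markers summed to 90.3 and 41.1 FPKM in wild type, against 199.7 and 300.9 FPKM in knockout, and CD8 T and NK markers to 58.5 and 49.4 against 123.2 and 115.3 FPKM. Nkg7, a gene of cytotoxic cells, rose from 6.96 to 48.9 FPKM on average (adjusted p = 0.03). The CD8 T and NK list was not uniform, although limma called 0 of its 10 genes lower. Prf1 was at 19.7 and 19.2 FPKM in wild type, against 14.3 and 11.8 FPKM in knockout. Klrd1 was at 11.5 and 10.6 against 11.3 and 9.52 FPKM. Limma called higher 5 of 9 B cell, 3 of 10 CD8 T and NK, 1 of 10 myeloid, 3 of 9 regulatory T cell and 4 of 9 CD4 T cell genes, and called 2 of 7 naive T cell genes lower. Foxp3 was at 4.88 and 5.06 FPKM in wild type, against 5.09 and 4.81 FPKM in knockout. The part of these cells in the values of Pdcd1, Lag3, Tigit and Havcr2, the 4 receptor genes with higher values in both knockouts, was not tested.

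Of the 13 ligands and partners, 1 was higher and 2 lower in the Nudt21 knockout (median log2 change 0.14). Icosl was at 5.39 and 4.45 FPKM in wild type, against 9.68 and 11.3 FPKM in knockout (adjusted p = 0.0243), and Cd200r1 fell from 11.2 ± 0.0531 to 4.93 ± 0.716 FPKM (SD, n = 2; adjusted p = 0.00184). The Icosl call was lost when any of the 4 Nudt21 libraries was left out and with no filter on low values (adjusted p up to 0.14). Among 17 other receptors 3 were higher and 2 lower (median 0.02): Slamf6 fell from 39.8 ± 3.25 to 25.8 ± 1.30 FPKM and Slamf1 rose from 6.57 ± 0.381 to 9.15 ± 0.231 FPKM. Among signalling proteins, 4 were higher and 4 lower of 22 (median -0.07), with Ptpn6 up from 173.2 ± 11.8 to 250.5 ± 14.7 FPKM (a call lost without Nudt21 wild type 2 or knockout 2, adjusted p up to 0.0578) and Fyn down from 148.0 ± 0.737 to 113.6 ± 1.47 FPKM. In the trafficking and mRNA control list 3 were higher and 2 lower of 13 (median 0.14), with Rab8a, a vesicle transport GTPase, up from 36.9 ± 1.35 to 52.1 ± 1.37 FPKM. Of 23 transcription factors 6 were higher and 2 lower (median 0.20). Id3 rose from 28.1 ± 0.589 to 49.2 ± 0.853 FPKM, and Foxo1, a factor of naive T cells, fell from 43.4 ± 0.541 to 30.6 ± 0.856 FPKM.

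The changes in the knockouts were then compared with each other, each measured against its own wild types. For 2 of the 9 genes, Icos and Btla, the Mettl3 change exceeded the Nudt21 change, beside 25.3% of all genes tested that differed (17.8% with the Mettl3 change above the Nudt21 change, 7.44% below). Icos differed by 1.36 ± 0.28 on the log2 scale (adjusted p = 0.00884), being higher in the Mettl3 knockout and lower in the Nudt21 knockout. It differed by 0.96 without Mettl3 knockout 3 (adjusted p = 0.00299). Btla differed by 0.88 ± 0.11 (adjusted p = 0.00116) and by 0.88 without knockout 3 (adjusted p = 0.00157), with log2 changes of 0.09 in the Mettl3 and -0.79 in the Nudt21 knockout. Both kept this call in all 23 alternatives. Pdcd1 differed by -0.91 ± 0.36 and did not pass with both knockouts (adjusted p = 0.0943), but did at -1.45 without knockout 3 (adjusted p = 0.000553). Cd96 missed the threshold at 0.35 ± 0.12 (adjusted p = 0.0562). For Cd28, Ctla4, Cd200, Lag3 and Tigit the adjusted p was between 0.12 and 0.503. Without knockout 3, Cd28 was called at -0.41 (adjusted p = 0.0283) and Tigit, with its sign turned, at -0.57 (adjusted p = 0.036). Ctla4 (0.36), Cd200 (0.24), Lag3 (-0.27) and Cd96 (0.39) did not pass without it (adjusted p = 0.0537 to 0.653). The median of the 9 was 0.88, beside 0.12 over all genes tested, and 0.24 without knockout 3.

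In the same comparison 1 of 13 ligands, Cd274, differed, with the Mettl3 change above the Nudt21 change (1.17 ± 0.25, adjusted p = 0.0102). Of 17 other receptors 3 differed each way, among them Slamf6 (0.67 ± 0.13) and Cd226 (-0.79 ± 0.11). Of 22 signalling proteins 2 had the Mettl3 change above and 4 below, where Ptpn6 (-1.11 ± 0.14) and Lck (-0.87 ± 0.10) were the largest. In the trafficking and mRNA control list 4 of 13 were below, and of 23 transcription factors 3 were above and 6 below, with Id3 (-1.78 ± 0.20) lower in the Mettl3 knockout and higher in the Nudt21 knockout. Without knockout 3 the 6 genes just named kept their calls, at 1.39 for Cd274, 0.70 for Slamf6, -0.85 for Cd226, -1.22 for Ptpn6, -0.84 for Lck and -1.97 for Id3 (adjusted p = 0.00018 to 0.00743). Counts above and below were then 1 and 2 for the ligands, 3 and 5 of 16 for other receptors, 1 and 4 for signalling proteins, 0 and 2 for the trafficking list and 5 and 8 for transcription factors.

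The resting wild types of the sets were compared because each knockout has its own controls. Only Cd28 of the 9 genes passed, beside 26% of all genes tested (18.7% higher in the Nudt21 set, 7.31% lower). The sets did not overlap in 6 of the 9, beside 58.4% of all genes tested. Cd28 was at 55.1, 52.1 and 55.2 FPKM in the Mettl3 set and at 42.9 and 43.6 FPKM in the Nudt21 set (log2 change -0.32 ± 0.10, adjusted p = 0.0383). The Nudt21 wild types were thus near the Mettl3 knockouts in Cd28. Ctla4, at 4.13 and 4.74 FPKM in the Nudt21 set, was below all 3 values of the Mettl3 set (-0.82 ± 0.28, adjusted p = 0.0593). The call of Cd28 was lost in 8 of 21 alternatives, and Ctla4 was called in 7. The set, and whatever else differed between the sets, cannot be told apart. Of the 9 B cell markers tested 8 were higher in the Nudt21 set.

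Annotated transcripts of the receptors differ in features tied to the deleted proteins. For the protein-coding transcript with the longest 3′ untranslated part (GENCODE M21), TGTA, the DNA form of the UGUA bound by the Nudt21 protein, occurs 25 times in the 3574 bases of Cd28, 15 times in both Icos (2606 bases) and Btla (2295 bases), and 12 times in Ctla4 (1115 bases). Cd200 has 9 in 1324 bases, Havcr2 8 in 1809 and Cd96 3 in 216. The count is 0 in Pdcd1 (1000 bases), Tigit (134) and Lag3 (81). Over 11106 tested protein-coding genes the median count was 6, the median length 1109 bases and the median density 5.09 per kb. The median density of the 10 receptors was 6.15 per kb. Per kb, Cd96 and Ctla4 were highest, above 97.3% and 92.4% of the genes tested. Cd28 (71.8%), Cd200 (69.9%), Btla (67.0%), Icos (58.0%) and Havcr2 (41.5%) followed. Poly(A) site use was not measured in this table. GGACT, a frequent form of the m6A consensus, occurs 5 times in the whole transcripts of Cd28, Ctla4, Btla, Lag3 and Havcr2, 4 times in Pdcd1, 3 times in Cd96 and Cd200, and 1 time in Icos and Tigit, beside a median of 3 over genes tested. GGACT per kb was 2.59 in Ctla4, 2.50 in Lag3, 2.07 in Pdcd1, 1.84 in Havcr2 and 1.54 in Btla. It was 1.37 in Cd96, 1.28 in Cd200, 1.15 in Cd28, 1.09 in Tigit and 0.309 in Icos. The median over genes tested was 1.04 per kb. Methylation was not measured in these files.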

How the data were processed

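The values used are those of 1 deposited table, where the authors give an FPKM value for each of 32285 genes in 12 libraries of mouse T cells. Per the submitters' processing notes, Bowtie and the build mm10 were used, with no version or role stated. Which tool made the FPKM, which annotation, and whether strand was used, is not given in the sources used here. Per the labels' protocols the RNA was total RNA sequenced as read pairs. Read counts cannot be worked back from these values, so depth is unknown and neither a count test nor counting intervals are given; the number of libraries limits the precision. FPKM summed to 345621 to 386983 per library. Reads shared with the overlapping genes Rpl18-ps1 (Ctla4) and Gm37039 (Icos), which lie on the same strand, could not be told apart.

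Libraries were placed in 5 groups by their titles. Genes reaching 1 FPKM in 2 or more libraries were kept (12511; 19774 set aside). With the 5 groups as terms, log2(FPKM + 1) of all 12 libraries was modelled in limma 3.58.1 (R 4.3.3, empirical Bayes with a trend), leaving 7 residual and 2.64 prior degrees of freedom, so that groups of 2 borrow the spread of all groups. Log2 changes are on that scale, with a pseudocount of 1 FPKM, and understate the change of low genes; ratios are of mean FPKM. Benjamini-Hochberg adjustment ran over all genes tested, with a threshold of 0.05, in 5 comparisons. The code was tested on simulated data. Plots were made in Python 3.11.15 with matplotlib 3.10.9.

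The receptor genes, 5 lists of related genes (ligands, other receptors, signalling proteins, trafficking and mRNA control, transcription factors) and 7 marker lists (CD4, naive, regulatory and effector T cells, B cells, CD8 T and NK cells, myeloid cells) were chosen with earlier results of these data known, so their counts are descriptions. Named genes were the 10 receptors, up to 3 genes a list in each direction by size of change among those that passed, marker genes as levels, the deleted genes, and for each receptor the 2 genes of most similar pattern. Part of these is printed, and 2 genes that the rule names are not reported here.

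The labels do not say that a replicate number marks a shared animal, so the main fit has no replicate block. Deviations of same-numbered wild types at 0 h and 48 h from their group means correlated at 0.261, 0.228 and 0.319 over genes (numbers 1, 2 and 3). Alternatives were another pseudocount, no or a stricter filter, median-ratio, quantile and sum scaling, only the groups compared, library weights, no trend, a replicate block and each library left out. Positions and transcript features come from GENCODE M21 (mm10), promoters from RefSeq (GRCm38.p6).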

Additional observations from a re-analysis of the deposited data

Results flagged for a closer look

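The changes of 2 receptor genes differed between the knockouts when the difference itself was tested with limma. Icos, at 17.1 and 30.4 FPKM in the Mettl3 knockouts and 9.44 and 8.10 FPKM in the Nudt21 knockouts, had a Mettl3 change above its Nudt21 change by 1.36 on the log2 scale (adjusted p = 0.00884, lowest and highest value over 23 alternatives 0.96 and 1.75). For Btla, at 43.9 and 43.7 FPKM against 23.7 and 22.4 FPKM, the difference was 0.88 (adjusted p = 0.00116, 0.74 to 0.96 over 23 alternatives). The Icos value moves with Mettl3 knockout 3 and the Btla value hardly does. All groups have 2 or 3 libraries, too few to test a library as an outlier.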

How the results depend on the processing

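The 9 receptor calls at 48 h kept direction and threshold in all 22 alternatives, and so did Btla in the Nudt21 knockout and Btla and Icos in the difference between the knockouts in all 23. Of 996 receptor values recomputed, 908 kept their side of the threshold, 9 of them with a change of sign that neither fit called. Of the rest, 34 lost a call, 52 gained one and 2 changed direction with a call. Those 2 came without Mettl3 knockout 3: Pdcd1 in the Mettl3 knockout at -0.43 (adjusted p = 0.0352; -0.43 to 0.65 over all libraries left out) and Tigit in the difference between the knockouts at -0.57 (adjusted p = 0.036; -0.57 to 2.44). Of 2811 values of named related genes, 368 lost their call and none changed direction with a call.

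The number of genes called moved with how the spread was estimated and with single libraries. Fitted on only the groups compared, the Mettl3 knockout gave 1417 of 11061 genes in place of 3610 of 12511, and 0 receptor genes in place of 2. The Nudt21 knockout then gave 4809 of 11186 genes in place of 3475 of 12511, and 8 receptor genes in place of 3. With library weights the Mettl3 knockout gave 1094 genes and 0 receptor genes, the Nudt21 knockout 5540 in place of 3475 and 6 receptor genes, and the difference 2035 in place of 3164. With no filter the Mettl3 knockout gave 3031 and the Nudt21 knockout 2923 of 26679 genes, and 1 receptor gene each. Between resting wild types, the main fit called 3251 of 12511 genes and 1 receptor gene. This became 2 receptor genes with pseudocount 0.1 (3207 genes), the filter at 5 FPKM (3139 of 9730), median-ratio (2639) and quantile scaling (2254). It became 3 with only the groups compared (3082 of 10988) and 4 with library weights (4637). It became 0 with no filter (2508 of 26679) and no trend (3086). The cause was not tested. Leaving out each library gave 9309 to 10101 genes at 48 h with 9 receptor genes each time, 2576 to 4689 (1 to 6 receptor genes) in the Mettl3 knockout, 1287 to 4736 (1 to 6) in the Nudt21 knockout, 1713 to 4376 (2 to 6) in the difference and 646 to 4251 (0 to 4) between wild types; the lowest counts came without Nudt21 knockout 2 (1287 and 1713) and Nudt21 wild type 1 (646).

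Scaling moved the share of calls that were higher from 58.3% to 47.6% (median-ratio) and 37.3% (quantile) in the Mettl3 knockout, from 31.4% to 49.4% (median-ratio) and 17.9% (sum) in the Nudt21 knockout, from 70.6% to 47.4% and 48.4% (median-ratio, quantile) in the difference, and from 71.9% to 54.5% and 45.7% between wild types. Quantile scaling moved the median of all genes from 0.07 to -0.11 at 48 h, 0.04 to -0.06 in the Mettl3 knockout and 0.12 to 0.00 in the difference; the called receptor genes kept their direction. With the replicate block 9646 genes and 9 receptor genes were called at 48 h, 2728 and 3 in the Mettl3 knockout (Lag3 added, adjusted p = 0.0433), 2638 and 3 in the Nudt21 knockout and 2361 and 2 in the difference. The block changed no other receptor call. The pairing check, which asks for 3 pairs, was met at 48 h, but it does not show that a number marks a shared animal. Deviations of the 2 Mettl3 knockouts and their same-numbered resting wild types correlated at 0.143 and 0.219. Nudt21 deviations correlated at -0.12, and with crossed numbers, chosen after seeing the data, 2952 genes and 3 receptor genes were called, and 2525 and 2 in the difference. No block can be fitted between the sets. FPKM without depth gives no limit for Havcr2, whose values near 0 cannot be told from absence.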

Other observations

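Ratios of FPKM within a library compare receptors per length. Ctla4 stood at 0.124 to 0.181 of Cd28 in resting wild types of the Mettl3 set and at 1.76 to 2.19 of it at 48 h. In the Nudt21 set the ratio was 0.0963 and 0.109 in wild type and 0.0560 and 0.0544 in knockout, and in the Mettl3 knockouts it was 0.169 and 0.340. Icos to Cd28 went from 0.232 to 0.302 at rest to 0.853 to 1.02 at 48 h, and was 0.471 and 0.665 in the Mettl3 knockouts, above all resting wild types (0.352 and 0.361 in the Nudt21 set). Icos to Cd28 was 0.229 and 0.221 in the Nudt21 knockouts. Tigit to Cd96 was 0.0106 to 0.0128 in resting wild types of the Mettl3 set and 2.22 to 3.09 at 48 h. It was 0.00874 and 0.191 in Mettl3 knockouts 1 and 3, 0.0195 and 0.0196 in Nudt21 wild types and 0.0401 and 0.0405 in Nudt21 knockouts.

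The genes whose log2(FPKM + 1) was most like each receptor over the 12 libraries were sought among 8708 genes with a mean of at least 5 FPKM. The libraries share groups, so r mostly reflects differences between groups, for most receptors the step from 0 h to 48 h, and is a description. Ctla4 was nearest to Topbp1 (r = 0.9941) and Wdhd1 (0.9938), Cd200 to Galk1 (0.9978) and Rnaseh2b (0.9977), and Lag3 to Birc5 (0.9904). Icos was nearest to Alg8 (0.9915) and Idh3a (0.9911), Pdcd1 to Ptms (0.9914) and H2afv (0.9844), and Tigit to Ier3 (0.9943) and Lgals1 (0.9906). Cd96, the receptor that fell, was nearest to Klf3 (0.9967) and Klf2 (0.9947), Btla to Odr4 (0.9874) and Drosha (0.984), and Cd28 to Fyttd1 (0.9835) and Dubr (0.9802). The pattern of Havcr2 was nearest to antibody variable segments, Igkv12-44 (0.985) and Ighv5-17 (0.9732). Havcr2 differed by only 0.033 on the log2 scale between 48 h and 0 h. Its highest values were in Mettl3 knockout 3 (1.27 FPKM) and the Nudt21 knockouts (0.230 and 0.374 FPKM). The part of B cells in this pattern was not tested.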
